A study of Homo sapiens with 8 samples.

Results

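The solute carrier (SLC) genes of A549 cells, counted without the mitochondrial SLC25 carriers, comprised 135 of the 13841 rows of the deposited count table. A row was a member when its symbol began with SLC and a digit, when it was neither an SLC25, antisense nor pseudogene row, and when its raw count averaged 20 or more over all 8 libraries. Of 243 rows with such a symbol, 38 were SLC25 rows, 2 were pseudogenes, 1 lay on the opposite strand of another SLC gene (SLC7A6OS) and 67 had a lower mean count. The lowest members were SLC3A1 and SLC23A1, each with a mean raw count of 20.25, and the rows just outside were SLC9A2 at 19.6 and SLC17A3 at 19.5. The members were thus chosen by their mean raw count over all libraries, a value that does not use the grouping. For 7 members, however, the mean reached 20 in 1 group only, so their differences are not independent of that minimum. All 135 members passed the filter on low counts.

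A549 is an established human cell line grown from an adenocarcinoma of the lung, often used in place of alveolar epithelium. The Senescent group held 4 libraries (1, 3, 4 and 5) of cells that stained for β-galactosidase, a lysosomal activity raised in senescent cells, and the Non_senescent group held 4 libraries (2, 6, 7 and 8) of cells that did not. Cells of both groups had undergone cyclic stretch (15% elongation, 15 cycles per min, 24 h) and were sorted after 6 days, so no library represents unstretched cells. Total RNA was turned into amplicon libraries, which read a short stretch of each transcript, and counts of different genes are therefore not set against each other here as levels.

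SLC proteins carry amino acids, sugars, metals, ions, vitamins and lipids across the plasma membrane and the membranes of lysosomes, the Golgi apparatus and the endoplasmic reticulum. Some work alone, others need a partner chain to reach the surface. Amino acids and lactate move in cultured carcinoma cells mainly through SLC7A5 with SLC3A2, SLC1A5 and the SLC16 carriers, and zinc and iron enter and leave through the SLC39, SLC30, SLC11 and SLC40 families.

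Promoter sequences are shown for members to which the results below return, as the 250 bases before the RefSeq start (GRCh38.p14), 5′ to 3′ on the strand of the gene. SLC7A5 and SLC3A2 encode both chains of one amino acid exchanger, SLC30A1 the zinc exporter that is a classical target of the metal-responsive factor MTF1, and SLC27A1 a fatty acid transporter with the smallest p among the members. The SLC7A5 window is chr16:87869508-87869757 on the minus strand, the SLC3A2 window chr11:62881449-62881698 on the plus strand, the SLC30A1 window chr1:211579162-211579411 on the minus strand and the SLC27A1 window chr19:17470274-17470523 on the plus strand. Capitals mark matches, on either strand, to the motifs named after the sequences.
SLC7A5: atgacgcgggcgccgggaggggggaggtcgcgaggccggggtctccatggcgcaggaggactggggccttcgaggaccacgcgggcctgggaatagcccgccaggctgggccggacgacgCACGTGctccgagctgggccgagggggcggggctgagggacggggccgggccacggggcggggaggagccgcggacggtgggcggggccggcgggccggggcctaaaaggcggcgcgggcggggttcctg
SLC3A2: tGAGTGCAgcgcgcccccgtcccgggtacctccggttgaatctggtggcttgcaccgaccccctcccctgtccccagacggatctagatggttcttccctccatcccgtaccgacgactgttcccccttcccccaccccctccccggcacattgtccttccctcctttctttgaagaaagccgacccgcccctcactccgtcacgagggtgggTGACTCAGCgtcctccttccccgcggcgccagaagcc
SLC30A1: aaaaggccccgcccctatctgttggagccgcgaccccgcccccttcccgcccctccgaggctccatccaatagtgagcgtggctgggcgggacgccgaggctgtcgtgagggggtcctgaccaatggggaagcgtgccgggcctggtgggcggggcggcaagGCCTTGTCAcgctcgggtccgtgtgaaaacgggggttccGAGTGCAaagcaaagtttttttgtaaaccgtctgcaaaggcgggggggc
SLC27A1: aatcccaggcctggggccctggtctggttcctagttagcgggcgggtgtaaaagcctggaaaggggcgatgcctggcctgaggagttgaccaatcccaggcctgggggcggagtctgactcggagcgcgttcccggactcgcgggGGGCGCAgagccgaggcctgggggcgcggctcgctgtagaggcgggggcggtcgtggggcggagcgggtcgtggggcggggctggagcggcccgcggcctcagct

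The motifs searched were TGCACNC and TGCGCNC (cores of the metal response element), TGATGNAA (the core read by ATF4), TGACNNNGC (the core of the antioxidant response element) and the E-box CACGTG, each on both strands. Such windows were given for 110 of the 135 members and 27305 genes in all. TGCACNC stood in 10.9% of the SLC windows and 9.73% of all windows, TGCGCNC in 20% and 16.9%, TGATGNAA in 1.82% and 3.19%, TGACNNNGC in 14.5% and 11%, and CACGTG in 8.18% and 6.49%. A match is a description of the letters and not of a bound site. SLC7A5 held 1 E-box at positions -130 to -125 from the start, SLC3A2 held TGACNNNGC at -37 to -29 and TGCACNC at -249 to -243, SLC30A1 held TGCACNC at -49 to -43 and TGACNNNGC at -88 to -80, and SLC27A1 held TGCGCNC at -105 to -99.

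Library totals ranged from 5634961 counts in Senescent 1 to 7990839 in Non_senescent 2. These libraries stood apart from the other 6 on the first principal components of all tested rows, which held 41.7% and 21.4% of the variance. Senescent 1 was the highest or lowest of the 8 libraries for 48.9% of the SLC members and 47.8% of all tested rows, and Non_senescent 2 for 50.4% and 55.6%. Mitochondrially encoded transcripts came to 102.8 CPM (counts scaled to a common library size) in Senescent 1 and between 10.9 and 22.6 in the other libraries. The 5 epithelial markers summed to between 1170 and 1588 CPM in Senescent and 1332 and 2378 in Non_senescent libraries. Of markers of other cell types, COL1A1 and COL3A1 summed to 5.73 to 9.96 CPM in Senescent and 7.13 to 8.65 in Non_senescent libraries, and the endothelial CDH5 to at most 1.18 and 0.998. The macrophage marker CD68, a lysosomal protein that epithelial lines also express, was at 20.4 to 24.6 and 17.1 to 23.9 CPM. Of alveolar type 2 markers the surfactant genes SFTPB and SFTPC were at or near 0 (at most 0.508 CPM in any library). ABCA3, the lipid transporter of lamellar bodies, was at 16.7 to 33.2 CPM in Senescent and 14.7 to 26.1 in Non_senescent libraries.

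No SLC member passed an adjusted p of 0.05 in the comparison of Senescent with Non_senescent libraries, and neither did any other of the 11351 tested rows (edgeR's quasi-likelihood test with Benjamini-Hochberg adjustment, 0 percent called). The estimate was higher in Senescent libraries for 72 members and lower for 63, with a median log2 fold change of 0.06, against -0.02 over all tested rows, of which 48.1% had a higher estimate. Single libraries decided that median, which was 0.014 without Non_senescent 2, against 0.013 over all rows, and 0.011 without Senescent 4. At an unadjusted p under 0.05 there were 14 members, or 10.4%, against 14.4% of all tested rows. Of these, 8 were higher (7.52% of all tested rows) and 6 were lower (6.85%). With libraries scaled by their totals alone these counts were 11 higher and 1 lower, and with upper quartile scaling 12 and 1. All tested rows tilted the same way, to 10.2% higher and 2.85% lower with library totals, and 9.57% and 4.26% with upper quartile scaling. All 4 Senescent values were above, or all 4 below, all Non_senescent values for 12 members, or 8.89%, against 9.14% of all tested rows. Senescent values lay above in 7 (5% of all tested rows) and below in 5 (4.14%). By these counts the SLC genes were not past either limit more often than the tested rows as a whole. DESeq2's Wald test called SLC27A1 and SLC27A3 among 52 rows in all, and limma voom with library weights called 0 rows, with 1857 at an unadjusted p under 0.05 against 1631 in edgeR. Without Senescent 1 there were 7 members at an unadjusted p under 0.05, or 5.19% against 10.4% of all tested rows, and without both Senescent 1 and Non_senescent 2 there were 8, or 5.93% against 10%.

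**Figure D1:**
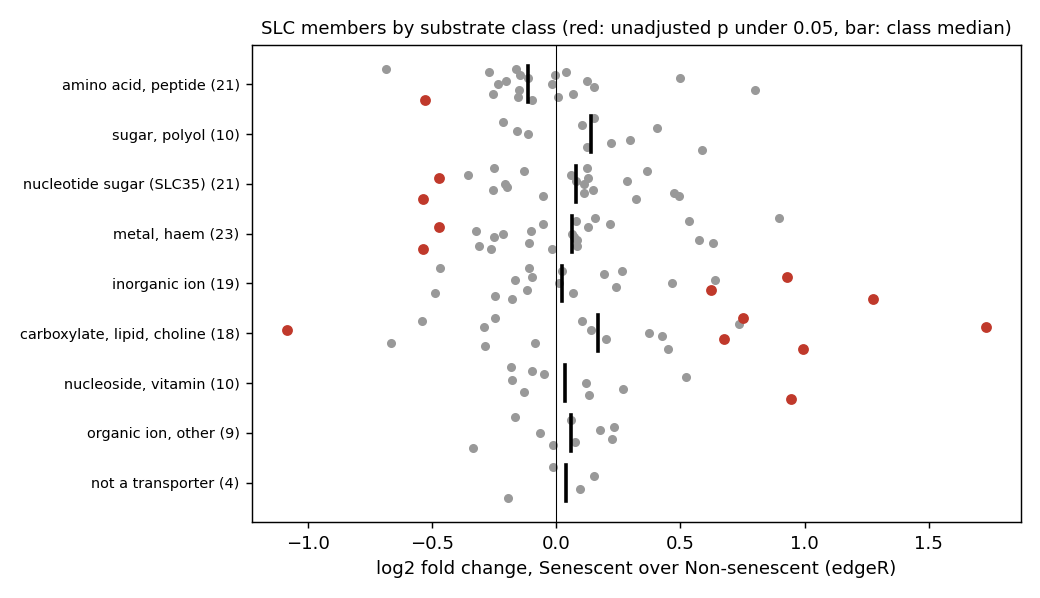
The log2 fold change (Senescent over Non_senescent, edgeR) of each of the 135 SLC members is plotted by substrate class, with the number of members in brackets, a black bar at the class median and red points at an unadjusted p under 0.05. Class medians lie between -0.11 for amino acid and 0.17 for carboxylate, lipid and choline carriers, and the vertical scatter within a class only keeps points apart.

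The class of carboxylate, fatty acid, bile acid and choline carriers had 18 members, of which 4 were higher and 1 lower in Senescent libraries at an unadjusted p under 0.05. That is 27.8% of the class, against 14.4% of all tested rows. SLC27A3 and SLC10A4 among them reached the minimum mean of 20 raw counts in 1 group only, so the share is given as a description. The median log2 fold change of the class was 0.17, and 0.12 to 0.30 with single libraries left out. SLC27A1, which takes up long-chain fatty acids and couples them to coenzyme A, was at 14.2, 11.5, 11.5 and 11.4 CPM in Senescent 1, 3, 4 and 5, against 5.67, 6.43, 7.41 and 4.85 CPM in Non_senescent 2, 6, 7 and 8. Every Senescent value lay above every Non_senescent value. Its log2 fold change was 0.99 ± 0.23 (SE, 95% interval 0.50 to 1.49, edgeR adjusted p 0.309), and it stayed between 0.91 and 1.10 with each library left out. DESeq2's Wald test gave an adjusted p of 0.0370. SLC27A1 lies on chromosome 19 at 17468769 to 17506168 (GRCh38, GENCODE 29).

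SLC27A3, a member of the same fatty acid transport family with acyl-CoA synthetase activity, was at 10.7, 5.36, 7.20 and 4.46 CPM in Senescent 1, 3, 4 and 5, against 0.436, 2.37, 2.62 and 2.85 CPM in Non_senescent 2, 6, 7 and 8. The groups did not overlap, with Senescent 1 highest and Non_senescent 2, at 3 raw counts, lowest. SLC27A3 had a log2 fold change of 1.73 ± 0.46 (SE, edgeR adjusted p 0.309; DESeq2 adjusted p 0.0484), and 1.13 without both of those libraries. SLC27A3 reached the minimum mean of 20 raw counts in the Senescent group only, so neither adjusted p is independent of that minimum. Exons of SLC27A3 overlap INTS3 on the same strand (chromosome 1 at 153774354 to 153780157), so its counts could include reads of that gene. The third family member, SLC27A2, had 23.7, 18.6, 18.8 and 19.9 CPM in Senescent and 5.67, 20.1, 12.7 and 21.8 CPM in Non_senescent libraries, with overlap between the groups (log2 fold change 0.43, 95% interval -0.30 to 1.151). The estimate for SLC27A2 was 0.16 without Non_senescent 2 and 0.087 without both outlying libraries.

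SLC13A5, the sodium-coupled citrate transporter of the plasma membrane, was at 37.5, 32.9, 39.0 and 35.1 CPM in Senescent 1, 3, 4 and 5, against 18.5, 17.3, 26.4 and 28.4 CPM in Non_senescent 2, 6, 7 and 8. Again no value overlapped, and neither Senescent 1 nor Non_senescent 2 was the extreme of its group. That gave a log2 fold change of 0.67 ± 0.21 (SE, 95% interval 0.22 to 1.13, edgeR adjusted p 0.309), and 0.59 without both of those libraries. Exons of SLC13A5 overlap C17orf100 on the opposite strand. An unadjusted p under 0.05 with each single library left out was seen for 5 members, or 3.7%, against 4.83% of all tested rows. These were SLC27A1, SLC13A5, SLC27A3, SLC12A9 and SLC4A3. SLC27A3 and SLC4A3 reached the minimum mean of 20 raw counts through the Senescent libraries alone, with 48.25 and 30.75 raw counts in those and 13.5 and 12 in Non_senescent libraries, so their difference is not independent of that minimum and is given as a description.

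**Figure D2:**
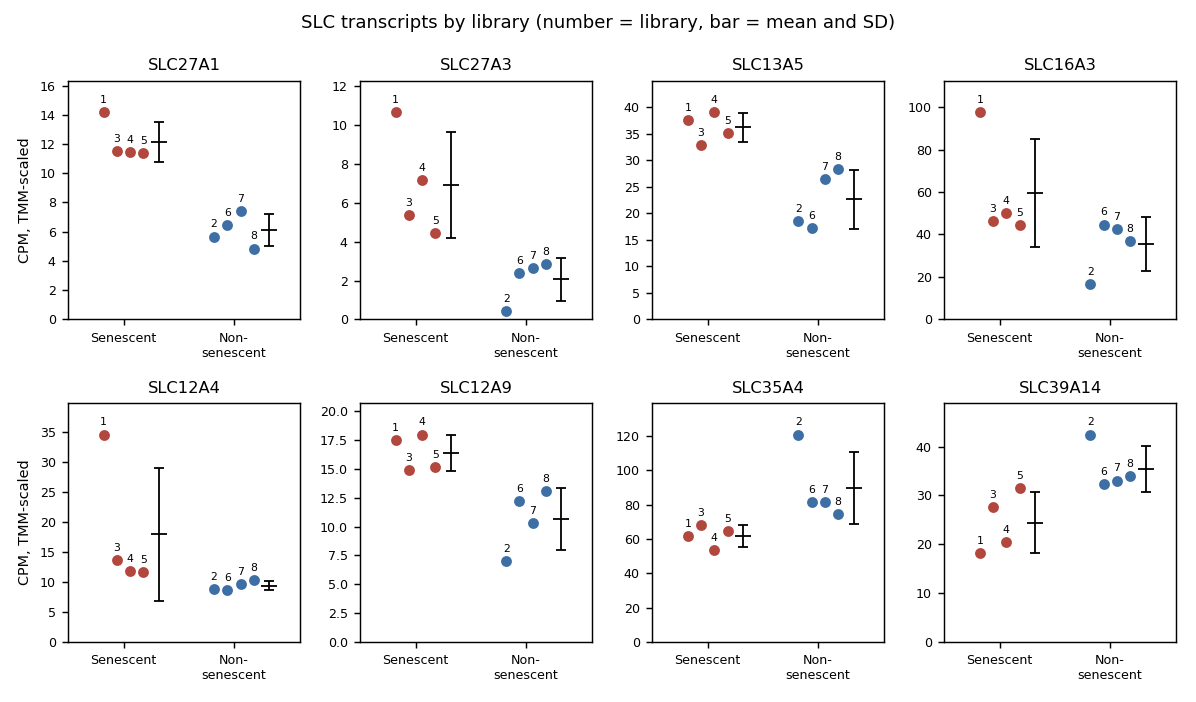
CPM, TMM-scaled, of 8 SLC transcripts in the 4 Senescent libraries (left, red) and the 4 Non_senescent libraries (right, blue), with the library number over each point and the mean and SD beside the points. Senescent 1 alone is far above its group for SLC16A3 (97.6 CPM) and SLC12A4 (34.5 CPM). The groups overlap for SLC16A3 and do not overlap for the other genes shown.

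SLC16A3, which exports lactate from glycolytic cells, was at 97.6, 46.3, 50.1 and 44.3 CPM in Senescent 1, 3, 4 and 5, against 16.9, 44.7, 42.8 and 36.9 CPM in Non_senescent 2, 6, 7 and 8. The distance between groups came mostly from Senescent 1 and Non_senescent 2, and the other 6 libraries lay between 36.9 and 50.1 CPM. The log2 fold change of 0.75 (95% interval 0.05 to 1.46, edgeR adjusted p 0.327) was 0.41 without Senescent 1 and 0.20 without both. SLC16A1, the lactate and pyruvate carrier that works in either direction, averaged 27.0 ± 2.77 CPM in Senescent and 32.9 ± 3.19 in Non_senescent libraries (SD, n = 4 each), with -0.29 (-0.67 to 0.10) as its log2 fold change. BSG, the chaperone that both carriers need at the surface, was at 472, 315, 278 and 254 CPM in Senescent and 158, 261, 284 and 250.1 CPM in Non_senescent libraries (log2 fold change 0.47, -0.04 to 0.98), again with its extremes in Senescent 1 and Non_senescent 2, and at 0.25 without Senescent 1. SLC10A4, an orphan of the bile acid family, was the lower member, at 0.834, 2.09, 2.80 and 4.72 CPM in Senescent and 10.03, 3.55, 5.87 and 2.99 CPM in Non_senescent libraries. Its log2 fold change of -1.08 (edgeR adjusted p 0.343) rests on as few as 5 raw counts and was -0.34 without both libraries. SLC10A4 averaged 19.5 raw counts in Senescent and 37.25 in Non_senescent libraries, so its difference is not independent of the minimum count.

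Amino acid and peptide carriers had 21 members, of which 0 were higher and 1, SLC7A5, was lower in Senescent libraries at an unadjusted p under 0.05. This makes 4.76% of the class, against 14.4% of all tested rows in either direction. Lower estimates outnumbered higher ones by 14 to 7, with a median log2 fold change of -0.11, but without Senescent 1 they numbered 9 to 12, with a median of 0.0079. With libraries scaled by their totals there were 10 lower and 11 higher, with a median of 0.0033. That scaling raised all tested rows as well, from a median of -0.0185 to 0.0971, so the class median stayed below that of all rows. The class summed to 1330, 2148, 2157 and 2128 CPM in Senescent 1, 3, 4 and 5, against 1986, 2200.5, 2284 and 2370 CPM in Non_senescent 2, 6, 7 and 8. SLC7A5, the row of highest counts, weighs most in that sum. It averaged 593 CPM in Senescent and 856 in Non_senescent libraries, where the class sums averaged 1941 and 2210. Senescent 1 was lowest of all libraries for 13 of the 21 members.

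SLC7A5, the exchanger that brings leucine and other large neutral amino acids into the cell, had 315, 718, 637 and 702 CPM in Senescent 1, 3, 4 and 5, against 821, 851, 957 and 796 CPM in Non_senescent 2, 6, 7 and 8. All Senescent values were below all Non_senescent values, by a narrow margin apart from Senescent 1. For SLC7A5 the log2 fold change was -0.53 ± 0.24 (SE, 95% interval -1.04 to -0.02, edgeR adjusted p 0.338), and -0.32 without Senescent 1 and without both outlying libraries. SLC7A5 lies on chromosome 16 at 87830023 to 87869488. Near-identical pseudogenes exist, and the row of one of them, SLC7A5P1 (mean raw count 86), was no member, so reads may have been divided between the rows.

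SLC3A2, the heavy chain that SLC7A5, SLC7A6, SLC7A7 and SLC7A11 need to reach the surface, was at 125, 189, 183 and 184 CPM in Senescent and 153, 181, 181 and 214 CPM in Non_senescent libraries. Its groups overlapped, and the log2 fold change of -0.10 (95% interval -0.49 to 0.30) was 0.025 without Senescent 1 and 0.0033 with libraries scaled by their totals. SLC7A11, which imports cystine for glutathione, averaged 125 ± 37.6 CPM in Senescent and 144 ± 12.3 in Non_senescent libraries (log2 fold change -0.20, -0.68 to 0.27), and its estimate was -0.02 without Senescent 1. SLC7A6 and SLC7A7, which exchange cationic for neutral amino acids, were at log2 fold changes of 0.07 and -0.27, with intervals that spanned 0. Without Non_senescent 2 SLC7A6 was at 0.30, without Non_senescent 7 at -0.0036, and without Senescent 1 SLC7A7 was at -0.03.

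**Figure D3:**
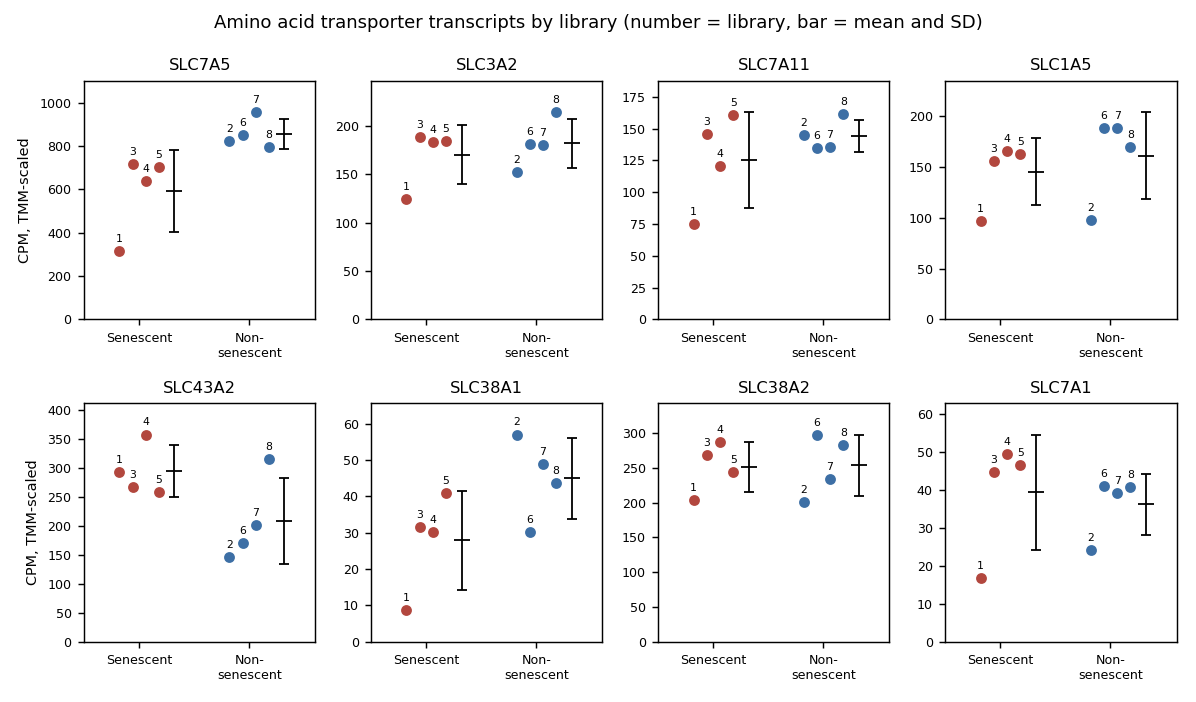
CPM, TMM-scaled, of 8 amino acid transporter transcripts in the 4 Senescent libraries (left, red) and the 4 Non_senescent libraries (right, blue), with the library number over each point and the mean and SD beside the points. Senescent 1 is the lowest Senescent library for SLC7A5 (315 CPM), SLC3A2 (125 CPM), SLC7A11 (74.6 CPM) and SLC38A1 (8.68 CPM), and the groups overlap except for SLC7A5.

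SLC43A2, a facilitative carrier of large neutral amino acids, was at 294, 267, 358 and 259 CPM in Senescent 1, 3, 4 and 5, against 147, 170.1, 201 and 315 CPM in Non_senescent 2, 6, 7 and 8. Non_senescent 8 alone reached the Senescent range, and the log2 fold change of 0.50 (95% interval -0.0078 to 1.004, edgeR adjusted p 0.354) was 0.80 without it. The estimate for SLC43A2 was 0.38 without Non_senescent 2, and 0.38 without both outlying libraries. SLC38A1, a sodium-coupled glutamine importer, was at 8.68, 31.6, 30.1 and 41.0 CPM in Senescent and 57.0, 30.3, 48.8 and 43.6 CPM in Non_senescent libraries. It had the lowest estimate of the class, -0.69 (-1.48 to 0.10), which was -0.39 without Senescent 1. SLC6A15, a neutral amino acid importer of low counts, averaged 6.87 ± 2.12 CPM in Senescent and 3.95 ± 2.20 in Non_senescent libraries (log2 fold change 0.80, -0.10 to 1.71), and was at 0.51 without Non_senescent 2, which held 8 raw counts. SLC1A5, the main glutamine exchanger, was at 96.8, 156, 166 and 163 CPM in Senescent and 98.2, 188, 189 and 169.7 CPM in Non_senescent libraries, with the lowest value of each group in Senescent 1 and Non_senescent 2. Its log2 fold change was -0.15 (-0.66 to 0.37) and 0.0064 without Senescent 1. SLC38A2, an amino acid importer induced by starvation, averaged 250.9 ± 35.9 and 254 ± 44.2 CPM in Senescent and Non_senescent libraries, a log2 fold change of -0.02 (-0.41 to 0.38) that was 0.07 without Senescent 1.

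Sugar and polyol carriers had 10 members, 7 with a higher and 3 with a lower estimate in Senescent libraries, and a median log2 fold change of 0.14. None of them was at an unadjusted p under 0.05 in edgeR, against 14.4% of all tested rows. SLC2A1, the basal glucose transporter that also responds to hypoxia, was at 85.1, 31.0, 47.6 and 29.6 CPM in Senescent 1, 3, 4 and 5, against 30.0, 31.8, 42.8 and 52.5 CPM in Non_senescent 2, 6, 7 and 8. Only Senescent 1 stood above the Non_senescent range. The log2 fold change of 0.30 (95% interval -0.41 to 0.997) was -0.12 without Senescent 1, -0.22 without both outlying libraries and -0.23 in limma voom with library weights. SLC2A3, a high-affinity glucose transporter, was at 68.1, 34.4, 34.5 and 26.7 CPM in Senescent and 17.6, 33.2, 27.8 and 30.2 CPM in Non_senescent libraries (log2 fold change 0.59, -0.06 to 1.23), and at 0.23 without Senescent 1. Its near-identical paralog SLC2A14 was not analysed here, and reads of the pair may not be told apart. SLC2A11, a hexose carrier, averaged 17.4 ± 1.43 CPM in Senescent and 13.2 ± 2.74 in Non_senescent libraries (log2 fold change 0.41, -0.05 to 0.86). SLC37A3, of the sugar phosphate exchanger family, was at 31.6 ± 3.42 and 28.5 ± 2.14 CPM in Senescent and Non_senescent libraries.

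The nucleotide sugar carriers of the Golgi apparatus and endoplasmic reticulum (SLC35) had 21 members, 0 higher and 2 lower in Senescent libraries at an unadjusted p under 0.05, with a median log2 fold change of 0.08. The 2 lower members make 9.52% of the class, against 14.4% of all tested rows in either direction. SLC35A4, a Golgi member of the family, was at 61.6, 67.9, 53.3 and 64.9 CPM in Senescent 1, 3, 4 and 5, against 121, 81.7, 81.8 and 74.6 CPM in Non_senescent 2, 6, 7 and 8. The groups did not overlap and Non_senescent 2 was far above the rest of its group. SLC35A4 had a log2 fold change of -0.54 ± 0.19 (SE, edgeR adjusted p 0.312), and -0.34 without Non_senescent 2. Exons of SLC35A4 overlap APBB3 on the opposite strand. SLC35A2, which brings UDP-galactose into the Golgi lumen for glycosylation, was at 11.2, 12.5, 15.7 and 11.5 CPM in Senescent and 21.2, 16.6, 17.9 and 15.1 CPM in Non_senescent libraries. It overlapped in Senescent 4 and Non_senescent 8, with a log2 fold change of -0.47 (-0.92 to -0.02, edgeR adjusted p 0.332) that was -0.30 without both outlying libraries.

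Metal and haem carriers had 23 members, 0 higher and 2 lower in Senescent libraries at an unadjusted p under 0.05, and a median log2 fold change of 0.06. Those 2 make 8.7% of the class, against 14.4% of all tested rows in either direction, 7.52% higher and 6.85% lower. Both lower members import divalent metals. SLC39A14, which brings zinc, manganese and unbound iron into the cell, was at 18.2, 27.6, 20.5 and 31.5 CPM in Senescent 1, 3, 4 and 5, against 42.5, 32.3, 33.0 and 33.9 CPM in Non_senescent 2, 6, 7 and 8. SLC11A2, which moves iron across the plasma membrane and out of endosomes, was at 16.4, 19.1, 22.9 and 13.9 CPM in Senescent and 28.9, 24.2, 23.0 and 24.1 CPM in Non_senescent libraries. Neither gene overlapped between groups, although Senescent 4 and Non_senescent 7 almost met for SLC11A2. The log2 fold changes were -0.53 (95% interval -1.003 to -0.07) and -0.47 (-0.92 to -0.02), at edgeR adjusted p 0.32 and 0.333, and -0.30 and -0.33 without both outlying libraries. Counts of metal carriers at an unadjusted p under 0.05 were 0 higher and 0 lower with libraries scaled by their totals, without Senescent 1, and without both outlying libraries. Without Non_senescent 6 they were 2 higher and 1 lower, where 7.53% of all tested rows were higher and 7.95% lower.

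Other iron and zinc genes did not form one direction. SLC40A1, the iron exporter ferroportin, was at 16.9, 68.5, 59.0 and 61.6 CPM in Senescent and 51.0, 87.5, 66.7 and 50.6 CPM in Non_senescent libraries (log2 fold change -0.31, 95% interval -1.06 to 0.45), and at -0.02 without Senescent 1. SLC39A8, a zinc and manganese importer close to SLC39A14, averaged 24.6 ± 5.04 and 16.6 ± 6.74 CPM in Senescent and Non_senescent libraries, with a log2 fold change of 0.57 (-0.05 to 1.20). SLC11A1, the phagosomal metal carrier known from macrophages, was at 5.35 ± 2.99 and 2.85 ± 1.42 CPM (0.90, -0.14 to 1.93), which was 0.46 without Senescent 1. With 36.75 raw counts on average in Senescent and 18.5 in Non_senescent libraries, its difference is not independent of the minimum count. The 9 importers of the SLC39 family had a median log2 fold change of 0.07 and the 6 exporters of the SLC30 family one of -0.08. SLC30A1, the zinc exporter of the plasma membrane whose promoter is shown above, was at 60.1, 62.2, 81.9 and 64.6 CPM in Senescent and 66.5, 75.1, 63.8 and 73.3 CPM in Non_senescent libraries. Its log2 fold change was -0.05 (-0.40 to 0.30), and 0.058 with libraries scaled by their totals. MT2A, a metallothionein under the same metal-responsive factor, was at 582, 989, 863 and 906 CPM in Senescent and 1391, 1066, 1335 and 1071 CPM in Non_senescent libraries without overlap (log2 fold change -0.54, 95% interval -0.97 to -0.12, edgeR adjusted p 0.312). Another metallothionein, MT1X, overlapped between groups, at 102 ± 10.3 CPM in Senescent and 108 ± 19.7 in Non_senescent libraries (log2 fold change -0.07, -0.46 to 0.31).

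**Figure D4:**
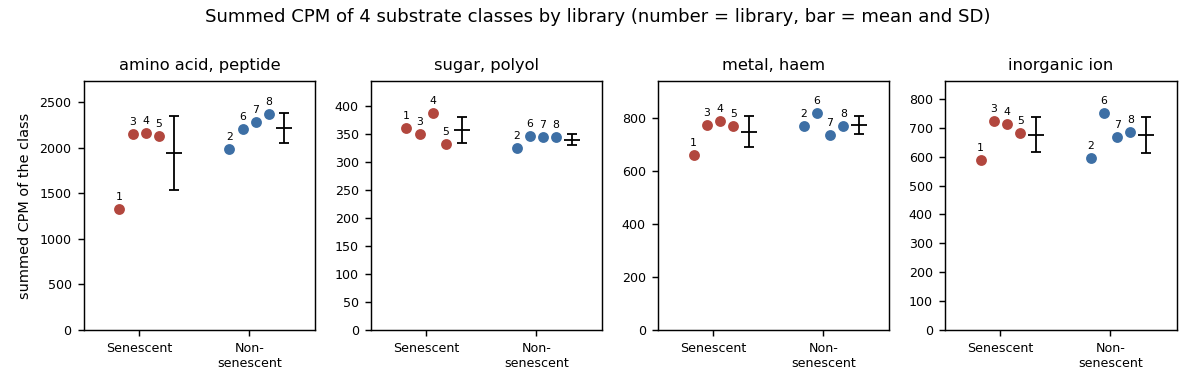
Summed CPM, TMM-scaled, of the members of 4 substrate classes in the 4 Senescent libraries (left, red) and the 4 Non_senescent libraries (right, blue), with the library number over each point and the mean and SD beside the points. The groups overlap for all 4 classes, and Senescent 1 is lowest for amino acid carriers (1330 CPM) and metal carriers (661 CPM).

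Inorganic ion carriers had 19 members, of which 3 were higher and 0 lower in Senescent libraries at an unadjusted p under 0.05. These make 15.8% of the class, against 14.4% of all tested rows in either direction, 7.52% higher and 6.85% lower. SLC4A3 among them reached the minimum count through the Senescent libraries alone (30.75 raw counts, against 12), so the share is given as a description. The class median log2 fold change of 0.02 turned with single libraries, to -0.05 without Senescent 3 and 0.14 without Senescent 1. SLC12A9, an orphan of the cation-chloride cotransporter family, was at 17.5, 14.9, 18.0 and 15.2 CPM in Senescent 1, 3, 4 and 5, against 6.98, 12.2, 10.3 and 13.1 CPM in Non_senescent 2, 6, 7 and 8. SLC12A4, a potassium and chloride exporter used in cell volume control, was at 34.5, 13.6, 11.7 and 11.7 CPM in Senescent and 8.87, 8.63, 9.57 and 10.3 CPM in Non_senescent libraries. Neither gene overlapped between groups, but the Senescent mean of SLC12A4 was carried by Senescent 1. The log2 fold change was 0.62 ± 0.23 for SLC12A9 and 0.93 ± 0.34 for SLC12A4 (SE, edgeR adjusted p 0.312 for both). It was 0.45 and 0.39 without both outlying libraries, and that of SLC12A4 was 0.40 without Senescent 1 alone. Exons of SLC12A9 overlap EPHB4 on the opposite strand, and those of SLC12A4 overlap LCAT on the same strand, so either count could include reads of the neighbour.

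SLC4A3, a chloride and bicarbonate exchanger, was at 8.51, 2.87, 2.80 and 3.80 CPM in Senescent and 1.31, 1.86, 1.54 and 2.57 CPM in Non_senescent libraries. The groups did not overlap, at raw counts as low as 9, and the log2 fold change of 1.28 ± 0.43 (SE, edgeR adjusted p 0.309) was 0.79 without Senescent 1. SLC9B2, a sodium and proton exchanger of intracellular membranes, averaged 6.77 ± 0.6 CPM in Senescent and 9.35 ± 1.08 in Non_senescent libraries, again without overlap (log2 fold change -0.47, 95% interval -0.94 to 0.0093, edgeR adjusted p 0.354). Exons of SLC9B2 overlap BDH2 on the same strand. SLC12A2, the sodium, potassium and chloride importer that counteracts SLC12A4, was at 100.1, 199, 199.9 and 186 CPM in Senescent and 155, 229.8, 205 and 185 CPM in Non_senescent libraries, a log2 fold change of -0.18 (-0.67 to 0.31). Without Senescent 1 it was 0.0084. SLC20A1, a phosphate importer, averaged 175 ± 12.4 and 172 ± 15.8 CPM in Senescent and Non_senescent libraries.

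Nucleoside and vitamin carriers had 10 members and 1 at an unadjusted p under 0.05, or 10% of the class against 14.4% of all tested rows. SLC29A2, an equilibrative nucleoside transporter, was at 26.7, 10.2, 9.99 and 8.52 CPM in Senescent 1, 3, 4 and 5, against 6.40, 10.5, 6.18 and 5.56 CPM in Non_senescent 2, 6, 7 and 8. Its log2 fold change of 0.95 (95% interval 0.13 to 1.76, edgeR adjusted p 0.319) was 0.42 without Senescent 1. SLC23A2, a sodium-coupled importer of vitamin C, was at 36.2, 38.4, 42.9 and 45.7 CPM in Senescent and 14.2, 29.8, 35.97 and 33.7 CPM in Non_senescent libraries. The groups were parted narrowly, with a log2 fold change of 0.52 (-0.04 to 1.08) that was 0.32 without Non_senescent 2.

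Organic ion carriers and carriers of other small molecules had 9 members and none at an unadjusted p under 0.05 in edgeR, against 14.4% of all tested rows. SLC22A3, a carrier of organic cations, averaged 192 ± 54.8 CPM in Senescent and 243 ± 63.2 in Non_senescent libraries (log2 fold change -0.34, 95% interval -0.88 to 0.21). Its estimate was -0.15 without Senescent 1 and -0.19 without Non_senescent 6. SLC14A2, a urea carrier, averaged 14.4 ± 3.02 CPM in Senescent and 12.2 ± 2.97 in Non_senescent libraries (log2 fold change 0.23, and 0.10 without Non_senescent 2). The 4 rows with an SLC symbol that encode no transporter were the scaffolds SLC9A3R1 and SLC9A3R2, the adaptor SLC4A1AP and the transcription factor SLC2A4RG. Their log2 fold changes lay between -0.20 and 0.15.

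Of 33 partners and regulators of transporters on a list, 26 were tested, 1 higher and 5 lower in Senescent libraries at an unadjusted p under 0.05, with a median log2 fold change of -0.30. That makes 23.1%, against 14.4% of all tested rows. RRAGA, a lysosomal GTPase that reports amino acids to mTORC1, was at 51.1, 49.1, 41.0 and 42.1 CPM in Senescent 1, 3, 4 and 5, against 66.7, 66.7, 65.9 and 55.0 CPM in Non_senescent 2, 6, 7 and 8. Its partner RRAGC averaged 29.8 ± 6.77 CPM in Senescent and 45.6 ± 11.3 in Non_senescent libraries. The log2 fold changes were -0.47 and -0.61, both at edgeR adjusted p of 0.309 or more (0.309 and 0.313). NFE2L2, the factor that acts on antioxidant response elements, averaged 60.9 ± 10.8 and 86.9 ± 15.9 CPM in Senescent and Non_senescent libraries, with a log2 fold change of -0.51 and with overlap. ACO1, which binds iron-responsive elements of transcripts such as those of SLC11A2 and SLC40A1, was the other lower gene beside MT2A, and RPTOR, an mTORC1 subunit, was the higher one, at log2 fold changes of -0.35 and 0.51, the second being 0.30 without Senescent 1. Without both outlying libraries RRAGC was at -0.29, MT2A at -0.31 and RPTOR at 0.26, whereas RRAGA was at -0.48, NFE2L2 at -0.54 and ACO1 at -0.33. The list was written by hand and is no independent evidence of a direction. In bulk RNA, fewer cells with a transcript and less of it per cell cannot be told apart.

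**Figure D5:**
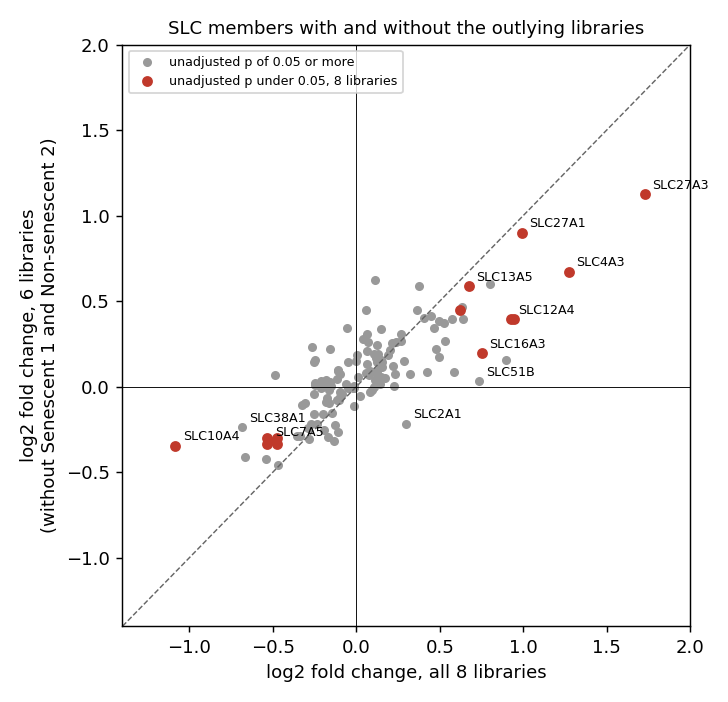
The log2 fold change (Senescent over Non_senescent) of each of the 135 SLC members with all 8 libraries is plotted against that with 6 libraries, without Senescent 1 and Non_senescent 2. Red points had an unadjusted p under 0.05 with all libraries and the dashed line marks equal values, and 27 members change sign while SLC27A1 and SLC13A5 stay near the line.

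The fold change kept its sign with each single library left out for 86 of the 135 members (63.7%, against 68.7% of all tested rows), and without both Senescent 1 and Non_senescent 2 for 108 (80%, against 80.8%). Of the 14 members at an unadjusted p under 0.05, 6 stayed so without both libraries, or 4.44% of the members against 6.84% of all tested rows. These were SLC27A1, SLC27A3, SLC13A5 and SLC12A9, higher in Senescent libraries, and SLC7A5 and SLC35A4, lower. The share of all tested rows at an unadjusted p under 0.05 was 10% in those 6 libraries, against 5.93% of the members. The median coefficient of variation between libraries was 22.4% in Senescent and 23.5% in Non_senescent libraries over the members, and 20.9% and 23.2% over all tested rows.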

How the data were processed

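RNA of 8 A549 libraries was measured with an amplicon transcriptome panel. Per the submitters' processing notes, reads were trimmed with fastp 0.20.1, quantified with Salmon 1.9 and tied to GRCh38. Transcript annotation, summing to genes, use of strand and any row filter: not given in the sources used here. As deposited, the table holds estimated counts, whole and unscaled, 1 row per gene, with 58 symbols on several rows. Library totals were 5634961 to 7990839 counts, and the median 95% interval of a log2 fold change extended 0.54 to either side.

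Counts were tested in R 4.3.3 with edgeR 4.0.16 (TMM scaling, filterByExpr with a minimum count of 10 and a minimum total of 15, robust quasi-likelihood test, Benjamini-Hochberg adjustment over 11351 rows, 2490 rows removed). DESeq2 1.42.0, limma 3.58.1 voom with library weights, other scalings and filters, and left-out libraries were alternatives. CPM values are TMM-scaled. The edgeR script was tested on simulated data. The labels do not name separate cultures within a group, and p-values may therefore reflect technical spread between samples alone. Every pair of libraries differed by more than sampling noise (lowest chi-square per degree of freedom 8.73).

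The members and lists were chosen with earlier results of these data known. Genes were named by a rule: the 4 of smallest p in each of the amino acid, sugar, metal and inorganic ion classes, the 2 of smallest p in each other class, a list of known transporters (of which SLC34A2 was not analysed here, and another is not reported here) and the 4 regulators of smallest p. SLC27A2, SLC13A5, SLC10A4, SLC7A6, SLC7A7, SLC38A2, SLC20A1, BSG, ACO1, MT1X and RPTOR, and the genes under other observations, were added after their values were seen. Exons of 67 members overlap another gene (GENCODE 29), and without stated strand use such reads cannot be told apart. Promoters are from RefSeq.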

Additional observations from a re-analysis of the deposited data

Results flagged for a closer look

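Of 98 sets of 4 libraries examined, 18 held a library far from the other 3 by Dixon's test at 95%, where chance gives about 1 in 20 of independent sets. The sets examined were not independent. They share the same 8 libraries and include genes named for a small p, so that rate is no yardstick for them.

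Senescent 1 accounted for 10 of the 18 flagged sets. It was above the other Senescent libraries for SLC27A1 (14.2 CPM, others 11.4 to 11.5), SLC12A4 (34.5, others 11.7 to 13.6), SLC29A2 (26.7, others 8.52 to 10.2) and SLC16A3 (97.6, others 44.3 to 50.1). It was below them for SLC3A2 (124.8 CPM, others 183 to 189), SLC1A5 (96.8, others 156 to 166), SLC12A2 (100.1, others 186 to 199.9), the summed amino acid carriers (1330 CPM, others 2128 to 2157) and the summed metal carriers (660.7 CPM, others 771 to 790.0). Its total of 5635000 counts, rounded, was also below those of the other Senescent libraries (7241677 to 7418432).

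Non_senescent 2 was above its group for SLC35A4 (121 CPM, others 74.6 to 81.8) and SLC39A14 (42.5, others 32.3 to 33.9). It was below its group for SLC11A1 (0.727 CPM, others 3.40 to 3.71) and the summed sugar carriers (324.6 CPM, others 343.8 to 346.6). Non_senescent 6 was above its group for SLC29A2 (10.5 CPM, others 5.56 to 6.40) and the summed nucleotide sugar carriers (993 CPM, others 867 to 885). Non_senescent 8 was low for RRAGA (55.0 CPM, others 65.9 to 66.7), and Senescent 4 was high for NFE2L2 (77.0 CPM, others 54.6 to 56.9).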

How the results depend on the processing

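No paired analysis was possible because each library number is used once and numbers are not shared between the groups. Rows called at an adjusted p under 0.05 numbered 52 in DESeq2 and 0 to 1 with single libraries left out, against 0 in edgeR. Scaling by library totals moved the median log2 fold change of all rows by 0.12, and those of the SLC members, metal and sugar carriers to 0.18, 0.18 and 0.24, so that the SLC median stayed 0.08 above that of all rows. That gap was 0.0006 without Non_senescent 2 and 0.022 without Senescent 4. Members with an unadjusted p under 0.05 that were lower in Senescent libraries numbered 1 with library totals, 1 with upper quartile scaling, 2 with at least 50 counts in 4 libraries, 2 without both Senescent 1 and Non_senescent 2, and 1 to 5 with single libraries left out. The share of all tested rows that were lower moved as well. In the same order it was 2.85%, 4.26%, 5.59%, 4.27% and 3.01% to 7.95%, against 6.85% in the main edgeR fit. Of 82 members with a mean raw count of 100 or more, 2 were higher and 5 lower (8.54%, against 14.9% of 6969 rows). With that minimum the class medians were -0.051 for metal, 0.37 for carboxylate and lipid, and -0.16 for nucleotide sugar carriers, and with at least 50 counts in 4 libraries the carboxylate and lipid median was 0.42. With single libraries left out, the median ranged from -0.019 to 0.082 for metal and from -0.038 to 0.23 for nucleoside and vitamin carriers. Signs turned for SLC2A1 (-0.22 without both libraries, -0.23 in voom, -0.12 to 0.49 with single libraries left out), SLC30A1 (0.058 with library totals, 0.012 with upper quartile scaling), SLC3A2 (0.0033 with library totals, -0.16 to 0.025 with single libraries left out), SLC7A11 (0.0036 without both), SLC12A2 (-0.26 to 0.0084) and SLC1A5 (-0.31 to 0.0064), the last pair with single libraries left out. The cause was not tested. SLC27A1 and SLC27A3 were at 0.997 and 1.74 in DESeq2. Depth limits members such as SLC27A3, with 3 raw counts in its lowest library.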

Other observations

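Members of the SLC44 family, which carry choline, did not share a direction. SLC44A2 averaged 3.93 ± 0.896 CPM in Senescent and 6.25 ± 2.49 in Non_senescent libraries (SD, n = 4 each), with a log2 fold change of -0.67 (95% interval -1.39 to 0.06). SLC44A3 averaged 4.42 ± 1.26 and 6.47 ± 1.36 CPM in Senescent and Non_senescent libraries, at -0.54 (-1.18 to 0.09), and SLC44A5 6.19 ± 1.72 and 4.56 ± 2.57 CPM, at 0.45 (-0.37 to 1.27), with 0.28 to 0.89 over single libraries left out. SLC26A2, a sulfate carrier, was at 13.7 to 16.8 CPM in the 4 Senescent libraries and at 39.6, 15.2, 15.1 and 14.8 CPM in Non_senescent 2, 6, 7 and 8. Its log2 fold change of -0.49 was 0.02 without Non_senescent 2.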
